A study of Mus musculus with 24 samples.

Results

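The genes followed here belong to the Notch pathway and were measured across the mouse intestine. They are the receptors *Notch1*, *Notch2* and *Notch3*, the ligands *Dll1*, *Dll4*, *Jag1* and *Jag2*, the transcriptional repressors *Hes1* and *Hes6*, and *Lfng*, which modifies the receptors. These 10 genes were chosen by name, with earlier results of these data known, and all were found among the 53465 genes of the count table. Of these, 9 passed the filter on low counts, as did 15044 genes in all. *Notch3* did not pass and was described by its counts.

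RNA was sequenced from epithelial cells of Guca2a-Venus mice, sorted as GFP positive (here Venus-positive) or GFP negative (Venus-negative) from duodenum, jejunum, ileum and colon. Each of the 8 groups had 3 libraries, and the series describes 3 different mice. All groups came from the same transgenic line, in which a bacterial artificial chromosome expresses the fluorescent protein Venus under the control elements of *Guca2a*, the gene of the peptide guanylin. The line came from a single founder, and its reporter marks cells in which these elements drive Venus, not cells in which guanylin itself was measured. DAPI-positive, DRAQ5-negative and CD45-positive events were excluded from both sorts, and ages were not given in the sources used here. The labels do not tie a library to a mouse, so p-values measure the spread between libraries of a group and no pairing was made.

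Notch signalling passes between neighbouring cells: a Delta or Jagged ligand on one cell binds a Notch receptor on the next, the receptor is cleaved by ADAM proteases and γ-secretase, and its intracellular domain joins RBPJ in the nucleus to switch on targets such as *Hes1*. In the intestinal crypt, cells that receive the signal stay progenitors or become absorptive enterocytes, because HES1 represses *Atoh1*, the factor that starts secretory fates. Cells that express *Atoh1* become goblet, Paneth or enteroendocrine cells and carry the ligands DLL1 and DLL4.

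Depth was 7458616 to 23063124 gene reads a library (median 15379489.5). Levels are given as CPM, the count of a gene relative to the TMM-scaled library size. At 0.106 to 0.360 CPM a library held 3 counts of a gene, which was used as the floor of detection and covers counting error only, because amplified reads are not independent molecules. Mitochondrial genes took 32.3% to 46.6% of the counts in Venus-positive and 64.6% to 76.4% in Venus-negative cells of the duodenum, with 47.1% to 60.6% and 61.2% to 78.8% for the jejunum. For the ileum the ranges were 41.0% to 55.4% and 64.7% to 70.9%, and for the colon 68.6% to 77.9% and 65.3% to 80.7%. The sorts stood apart in the small intestine and overlapped in the colon. For the Notch genes followed here, 16 differences between sorts are described below as passing the test. All 16 also passed it when only protein-coding genes outside the mitochondrial genome were fitted. Among the differences between regions, that of *Notch2* between negative ileum and colon was lost in that fit. The 7 listed goblet markers were higher in Venus-positive cells of every region, and the 6 Paneth markers were higher in the 3 regions of the small intestine. All 7 enterocyte markers were higher in the jejunum and ileum, 2 in the duodenum and 3 in the colon. Of the 4 colonocyte markers, 4 were higher in the colon and 3 in the ileum, while 2 were lower in the duodenum and 1 in the jejunum. In bulk libraries such as these, fewer cells of a type and less RNA per cell cannot be told apart.

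The promoters of *Lfng* and of the ligands *Dll1* and *Dll4* are shown because the difference between sorts varied along the gut for each of these 3 genes. They are RefSeq windows of GRCm38.p6, from 250 bases before to 50 bases after an annotated start site, read 5′ to 3′ on the strand of the gene. The *Lfng* window lies at chr5:140607091-140607390 on the plus strand, the *Dll1* window at chr17:15376883-15377182 on the minus strand and the *Dll4* window at chr2:119325534-119325833 on the plus strand. Capitals mark the RBPJ core TGGGAA in *Lfng* (either strand, so that TTCCCA is also a match) and the E box CANNTG, the motif class bound by ATOH1 and other basic helix-loop-helix factors, in *Dll1*. The *Dll4* window has neither motif and stands all in lower case.
Lfng: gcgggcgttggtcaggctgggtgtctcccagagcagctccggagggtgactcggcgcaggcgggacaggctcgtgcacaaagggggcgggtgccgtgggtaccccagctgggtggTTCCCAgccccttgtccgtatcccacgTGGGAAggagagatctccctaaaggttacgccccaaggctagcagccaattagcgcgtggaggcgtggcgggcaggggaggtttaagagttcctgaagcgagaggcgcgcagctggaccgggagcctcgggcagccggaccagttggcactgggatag
Dll1: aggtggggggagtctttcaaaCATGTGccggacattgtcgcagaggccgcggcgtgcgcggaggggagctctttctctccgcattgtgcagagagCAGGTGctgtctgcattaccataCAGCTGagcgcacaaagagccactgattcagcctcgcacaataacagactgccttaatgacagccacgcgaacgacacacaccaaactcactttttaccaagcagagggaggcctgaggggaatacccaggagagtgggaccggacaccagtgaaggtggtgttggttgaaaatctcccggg
Dll4: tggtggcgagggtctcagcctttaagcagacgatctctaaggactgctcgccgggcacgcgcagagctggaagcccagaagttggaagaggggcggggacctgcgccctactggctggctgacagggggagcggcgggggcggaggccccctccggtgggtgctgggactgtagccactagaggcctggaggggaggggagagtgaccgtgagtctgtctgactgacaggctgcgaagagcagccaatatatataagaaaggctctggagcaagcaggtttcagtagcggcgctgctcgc

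The RBPJ core was found in 25.6% of 32851 mouse promoter windows of 300 bases, and 3.79% held it at least 2 times. The *Lfng* window held 2 matches, the first on the minus strand from base -135 to base -130 before the start site and the next on the plus strand from base -108 to base -103. No match was found in the windows of the other members with an entry, which were *Notch1*, *Notch2*, *Notch3*, *Dll1*, *Dll4*, *Jag1*, *Jag2* and *Hes6*. *Hes1* had no entry. *Dll1* and *Hes6* had 2 windows each. The E box was found in 72.3% of all windows, and 39.6% held it at least 2 times. It stood 3 times in the *Dll1* window shown, with first bases at -229, -155 and -132. The other *Dll1* window held 1 E box, the *Jag1* window 1, the *Hes6* windows 3 and 1, and the *Lfng* window 4, which are not marked in the sequence above. The windows of *Notch1*, *Notch2*, *Notch3*, *Dll4* and *Jag2* held 0. These matches are descriptions of letters, not of bound sites.

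The sorts were then set against each other region by region with the quasi-likelihood test of edgeR, at an adjusted p of 0.05 (Benjamini-Hochberg over all 15044 genes). In the duodenum, 2 of the 9 tested members were higher in Venus-positive cells and 1 was lower, against 8.88% and 8.08% of all genes. In the jejunum 2 were higher and 4 lower, against 18.3% and 25.6%. In the ileum 1 was higher and 4 were lower, against 17.9% and 20.6%. In the colon 2 were lower, against 3.80% of all genes, and none was higher by edgeR, at an unadjusted p under 0.05 (0 genes) or by DESeq2 (0 genes), against 9.31% of all genes. The single lower member of the duodenum, the 2 higher ones of the jejunum and the single higher one of the ileum are near or below that background. These counts are no result about the group. From duodenum to jejunum, ileum and colon, the median log2 fold change of the 9 members was -0.19, -1.26, -1.97 and -0.65, beside -0.16, -0.28, -0.27 and 0.00 over all genes tested.

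**Figure D1:**
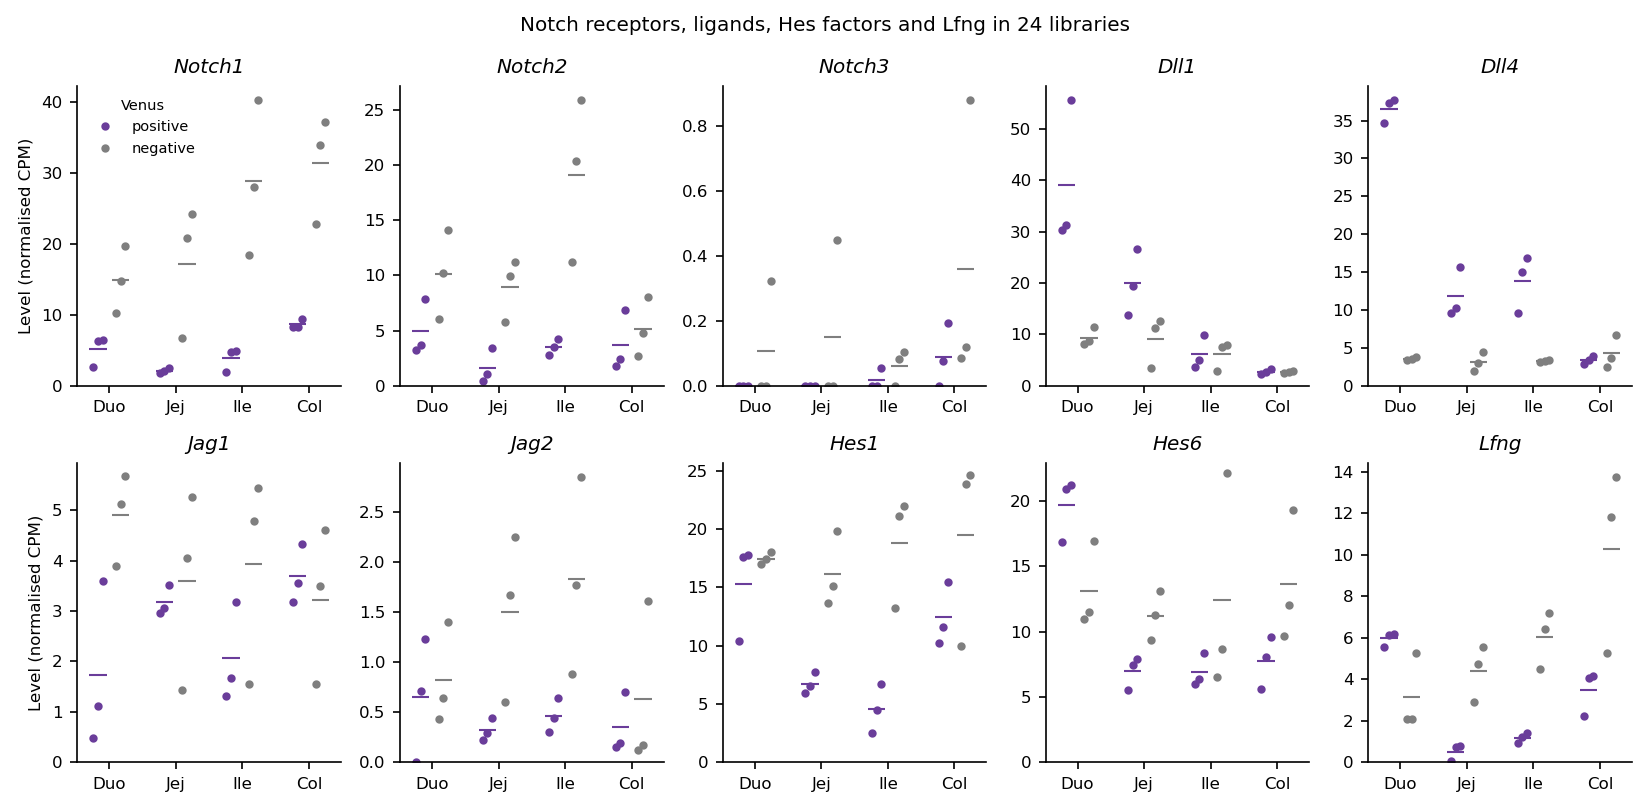
Level of each gene in the 24 libraries, in normalised CPM on a linear axis that starts at 0, by region (Duo, duodenum; Jej, jejunum; Ile, ileum; Col, colon) and sort. Each point is a library and each bar the mean of 3; the purple *Notch1* points lie under the grey ones in all 4 regions, while *Dll4* points of the small intestine lie above them.

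The receptor *Notch1* was the one member that differed in the same direction in all 4 regions, and it was lower in Venus-positive cells. *Notch1* (ENSMUSG00000026923, chr2:26457903-26516663, minus strand of GRCm38) encodes the principal receptor of crypt progenitors. In the duodenum its level was 2.66, 6.32 and 6.53 CPM in the 3 positive libraries and 19.6, 14.8 and 10.2 CPM in the negative ones. In the jejunum it was 1.79, 2.06 and 2.48 CPM in positive and 24.1, 20.8 and 6.71 CPM in negative libraries. Every positive library of either region lay below every negative one, with the third negative library of the jejunum nearest to the positive cells. Ileal positive libraries had 4.90, 4.81 and 1.99 CPM and negative ones 40.3, 28.0 and 18.4 CPM. Colonic positive libraries had 8.35, 9.34 and 8.26 CPM and negative ones 33.9, 37.1 and 22.8 CPM. The sorts did not overlap there either. On the log2 scale the duodenal difference was -1.52 (SE 0.42, edgeR adjusted p = 0.0120) and the jejunal one -3.02 (SE 0.44, adjusted p = 3.35e-06). For the ileum it was -2.88 (SE 0.43, adjusted p = 5.42e-06) and for the colon -1.85 (SE 0.41, adjusted p = 0.00261). The call in the duodenum was lost without negative replicate 1 (-1.28, adjusted p = 0.0626), without positive replicate 1 (-1.22, adjusted p = 0.0870) and with scaling by library size (-1.06, adjusted p = 0.0761).

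*Notch2* (ENSMUSG00000027878, chr3:98013527-98150361, plus strand), a receptor with overlapping roles in the crypt, fell in the jejunum and ileum. The jejunal libraries had 3.39, 1.06 and 0.438 CPM when positive and 9.94, 11.2 and 5.81 CPM when negative. Those of the ileum had 3.499, 4.21 and 2.79 CPM against 25.9, 20.3 and 11.2 CPM. Positive and negative libraries stood apart in both regions. The log2 fold changes were both -2.45, with an SE of 0.58 and an edgeR adjusted p of 0.000972 in the jejunum and an SE of 0.56 and an adjusted p of 0.000862 in the ileum. In the duodenum (-1.02, SE 0.54, adjusted p = 0.201) and the colon (-0.48, SE 0.55, adjusted p = 0.637) the sorts overlapped and the test was not passed. The duodenum had 3.28, 7.88 and 3.71 CPM in positive and 14.1, 10.2 and 6.06 CPM in negative libraries. The colon had 6.88, 2.48 and 1.81 CPM in positive and 8.03, 4.83 and 2.72 CPM in negative libraries. Replicate numbers follow the order of the samples in the series. Whether a number stands for 1 mouse was not tested, so libraries were not compared by number. No difference between regions in the size of this contrast passed the test for either receptor. For *Notch1* it came nearest between duodenum and jejunum (1.501, SE 0.59, adjusted p = 0.0871).

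*Notch3* (ENSMUSG00000038146, chr17:32120820-32166852, minus strand), a receptor best known from mural cells of blood vessels, was at or under the floor in all positive libraries. All libraries of positive duodenum and jejunum had 0 counts, positive ileum had at most 1 and positive colon at most 3. The highest count, 12, was in a negative colon library. *Notch4*, a receptor of endothelium, was also low, with group means of 0.407 to 1.78 CPM. Summed levels of the 5 listed mural and smooth muscle markers were 0.00 to 6.69 CPM over the libraries, and those of the 6 endothelial markers 0.0721 to 8.27 CPM.

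Levels of different genes were compared per kilobase of annotated exon. On this scale the 4 receptors summed to 0.353 ± 0.0960 CPM per kb in positive and 2.11 ± 0.922 CPM per kb in negative jejunum (SD, n = 3). In the ileum the sums were 0.701 ± 0.194 and 4.03 ± 1.54 CPM per kb. *Notch1* made up 79.1% ± 5.46 of the receptor sum in negative colon, where *Notch2* made up 16.7% ± 6.02, and the receptors were nearer to each other in negative ileum (50.6% ± 2.92 and 43.9% ± 1.30). With the length of the longest transcript in place of all exons, the share of *Notch1* in negative ileum was 59.4%.

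The Delta ligands ran the other way in the duodenum and jejunum, and *Dll4* also in the ileum. Their log2 fold changes were highest in the duodenum. *Dll4* (ENSMUSG00000027314, chr2:119325784-119335962, plus strand) encodes a ligand carried by secretory cells of the crypt. Positive libraries of the duodenum had 34.6, 37.8 and 37.4 CPM and negative ones 3.51, 3.44 and 3.75 CPM. In the jejunum the values were 9.65, 15.7 and 10.3 CPM against 2.96, 4.504 and 1.996 CPM. In the ileum they were 9.58, 16.9 and 15.1 CPM against 3.46, 3.35 and 3.21 CPM. All positive libraries of the small intestine were above the negative ones of their region. On the log2 scale the rise was 3.36 in the duodenum (SE 0.37, edgeR adjusted p = 9.11e-08), 1.91 in the jejunum (SE 0.35, adjusted p = 6.41e-05) and 2.05 in the ileum (SE 0.35, adjusted p = 3.10e-05). Colonic libraries had 2.86, 3.40 and 4.00 CPM when positive and 6.71, 3.66 and 2.55 CPM when negative. The sorts overlapped in the colon, with a log2 fold change of -0.31 (SE 0.36, adjusted p = 0.632).

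*Dll4* is also a gene of endothelial tip cells, so the endothelial markers were set beside it. In positive duodenum, where *Dll4* was highest, *Pecam1*, *Cdh5* and *Kdr* had 0 counts in all 3 libraries, and their whole list of 6 summed to 0.246 to 2.87 CPM, most of it *Clec14a* (0.908 ± 1.17 CPM). *Clec14a* had 2 to 22 counts there and 0 in the negative libraries, a difference that passed the test (edgeR adjusted p = 0.0184), and *Tek* had 0.430 against 0.139 CPM (adjusted p = 0.524). The list summed to 0.0721 to 1.12 CPM in negative duodenum, and the part of endothelial cells in the level of *Dll4* was not tested. The antisense gene Gm14207, which shares 214 exon bases with *Dll4*, had 12 to 124 counts in those libraries, where *Dll4* had 332 to 460, and 17 to 48 in the negative ones. The strand setting of the counting was not given in the sources used here, so reads of such overlapping pairs cannot be told apart. *A930024N18Rik*, which overlaps *Dll1*, had at most 22 counts in any library.

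*Dll1* (ENSMUSG00000014773, chr17:15367354-15376872, minus strand) encodes the other Delta ligand of secretory precursors. Its positive libraries in the duodenum had 55.6, 31.2 and 30.4 CPM and the negative ones 8.07, 11.5 and 8.65 CPM. In the jejunum they had 19.5, 26.6 and 13.8 CPM against 11.2, 12.6 and 3.45 CPM. Positive libraries were above negative ones in both regions, narrowly so in the jejunum. The log2 fold change was 2.05 in the duodenum (SE 0.42, edgeR adjusted p = 0.00117) and 1.14 in the jejunum (SE 0.42, adjusted p = 0.0268). The jejunal call was lost without negative replicate 3 (0.75, adjusted p = 0.160), positive replicate 1 (1.16, adjusted p = 0.0503) or positive replicate 2 (0.96, adjusted p = 0.0936). In the ileum the libraries had 9.80, 4.99 and 3.68 CPM against 8.04, 7.58 and 2.99 CPM, and in the colon 2.63, 2.41 and 3.36 CPM against 2.76, 2.93 and 2.55 CPM. The sorts overlapped in these regions, and the log2 fold changes were -0.01 (SE 0.42, adjusted p = 0.987) and 0.03 (SE 0.46, adjusted p = 0.983).

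The Jagged ligands did not pass the test in any region. *Jag1* (ENSMUSG00000027276, chr2:137081456-137116644, minus strand), a ligand with broad expression, came nearest in the duodenum. There it had 1.13, 0.493 and 3.60 CPM in positive and 5.68, 5.12 and 3.89 CPM in negative libraries, the third positive library close to the third negative one. The log2 fold change was -1.52 (SE 0.62, edgeR adjusted p = 0.0889), and without positive replicate 3 it was -2.61 with an adjusted p of 0.0133. Elsewhere its log2 fold changes were -0.18 (jejunum), -0.92 (ileum) and 0.18 (colon). *Jag2* (ENSMUSG00000002799, chr12:112907819-112929776, minus strand), a related ligand, had 0 to 81 counts per library and log2 fold changes from -2.21 (jejunum, adjusted p = 0.101) to -0.37 (duodenum, adjusted p = 0.853). In the jejunum and the ileum (-1.97, adjusted p = 0.143) every positive library of *Jag2* lay below the negative ones. These positive libraries held few counts, 4 to 7 in the jejunum and 5 to 12 in the ileum.

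**Figure D2:**
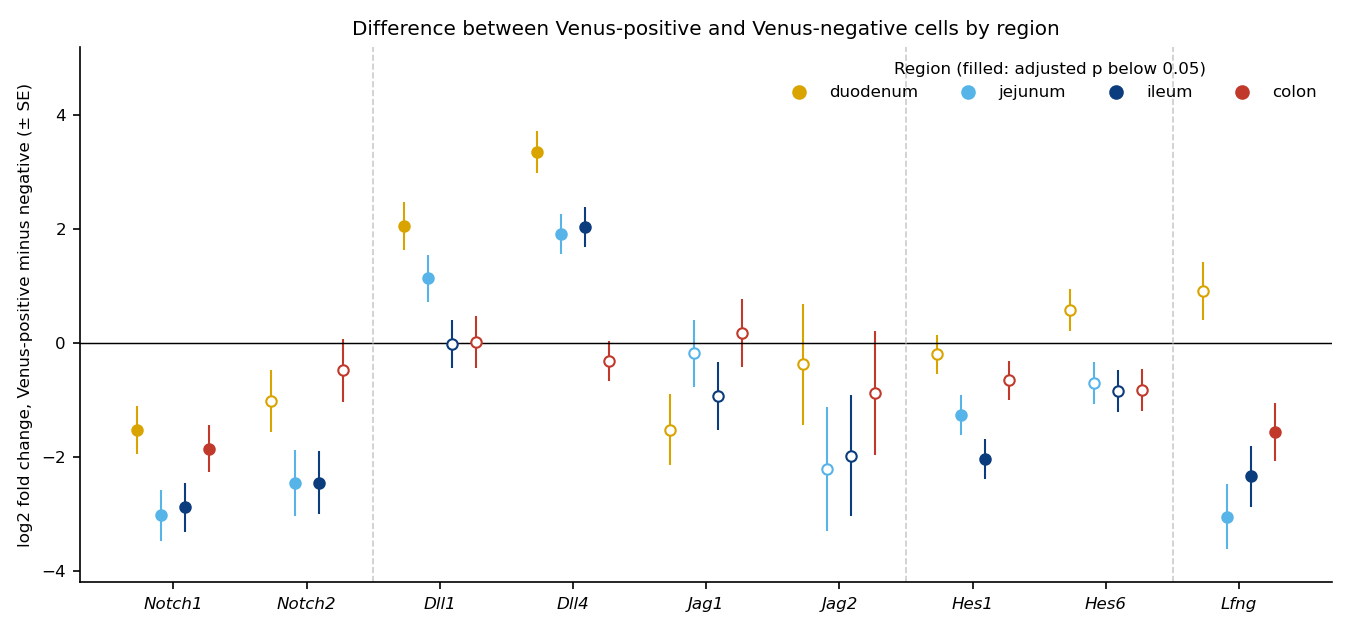
Log2 fold change of Venus-positive against Venus-negative cells with its SE, for the 9 tested genes and 4 regions; filled points have an edgeR adjusted p below 0.05. *Notch1* is below 0 in all regions, *Dll4* runs from 3.36 in the duodenum to -0.31 in the colon, and *Lfng* from 0.92 in the duodenum to -3.04 in the jejunum.

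Per kilobase, the 5 ligands *Dll1*, *Dll3*, *Dll4*, *Jag1* and *Jag2* summed to 19.3 ± 2.82 CPM per kb in positive and 4.15 ± 0.416 CPM per kb in negative duodenum (SD, n = 3). The sums in the colon were 2.32 ± 0.305 and 2.42 ± 0.436 CPM per kb. *Dll4* and *Dll1* took 50.05% ± 8.92 and 47.0% ± 10.0 of the ligand sum in positive duodenum. *Jag1* took 1.59% ± 1.60 there, against 20.2% ± 3.06 in negative duodenum and 27.4% ± 3.75 in positive colon. The highest share of *Dll4* was in positive ileum, at 65.7% ± 17.4.

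**Figure D3:**
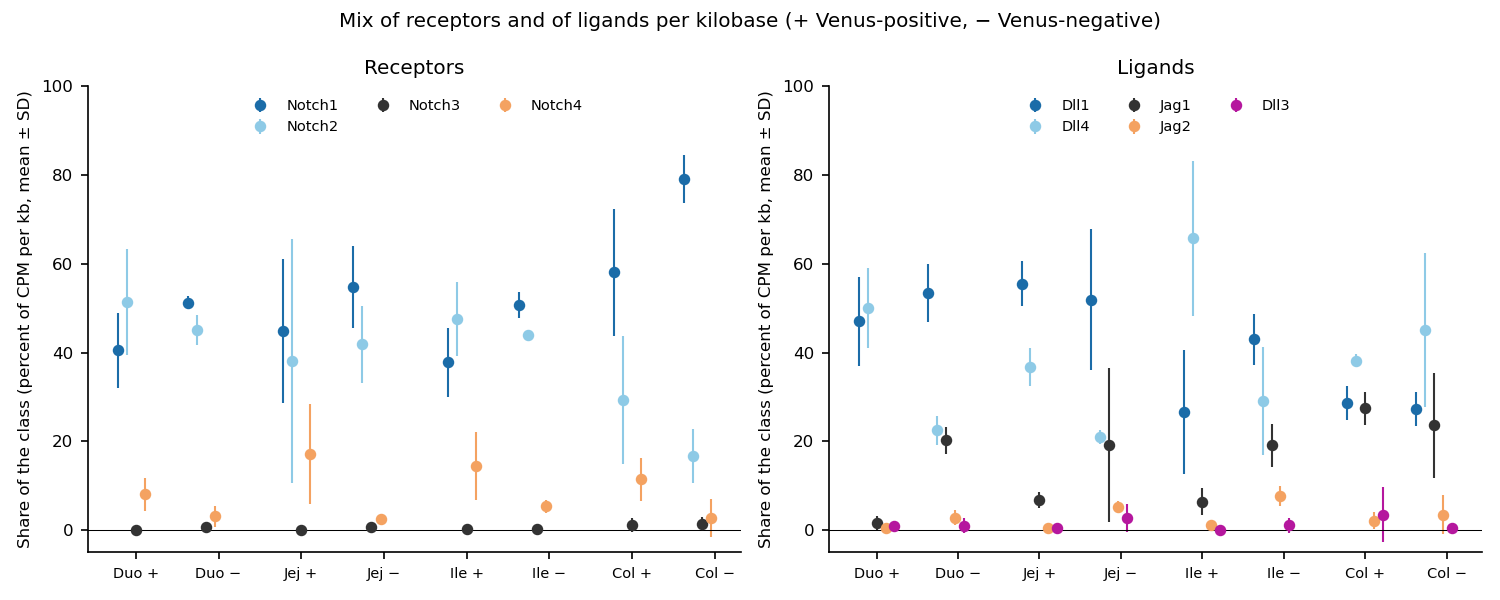
Share of each receptor (left) and each ligand (right) in the summed level of its class, in percent of CPM per kilobase of exon, mean ± SD of 3 libraries, for the 8 groups. *Notch1* reaches 79.1% of the receptor sum in negative colon, and *Jag1* goes from 1.59% of the ligand sum in positive duodenum to 27.4% in positive colon.

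*Hes1* (ENSMUSG00000022528, chr16:30064384-30067796, plus strand), the Notch target that represses *Atoh1*, was lower in positive cells of the jejunum and ileum. Jejunal libraries had 7.73, 6.58 and 5.98 CPM when positive and 19.8, 13.6 and 15.1 CPM when negative. Ileal ones had 6.73, 2.52 and 4.49 CPM against 21.2, 13.3 and 22.0 CPM. All positive libraries lay below the negative ones in these regions. The log2 fold change was -1.26 in the jejunum (SE 0.35, edgeR adjusted p = 0.00433) and -2.03 in the ileum (SE 0.36, adjusted p = 4.52e-05). With scaling by library size, the jejunal value was -0.90 with an adjusted p of 0.0600. In the duodenum the values were 10.4, 17.6 and 17.8 CPM against 17.4, 18.02 and 17.01 CPM, and in the colon 10.2, 15.5 and 11.6 CPM against 9.95, 24.6 and 23.9 CPM. The sorts overlapped in both, with log2 fold changes of -0.19 (SE 0.34, adjusted p = 0.742) and -0.65 (SE 0.34, adjusted p = 0.227). The first negative library of the colon lay apart from the other two, below every positive library.

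*Hes6* (ENSMUSG00000067071, chr1:91411483-91414038, minus strand), a family member that opposes HES1 in neural precursors and is also expressed in secretory precursors, did not pass the test in any region. It had 16.9 to 21.2 CPM in positive and 11.01 to 16.9 CPM in negative duodenum (log2 fold change 0.58, SE 0.36, edgeR adjusted p = 0.282). In the ileum it had 6.03 to 8.34 CPM in positive libraries and 8.71, 6.52 and 22.1 CPM in negative ones (-0.84, SE 0.37, adjusted p = 0.0692). The third negative library was the high one. In the jejunum (-0.69, adjusted p = 0.127) and the colon (-0.82, adjusted p = 0.145) each positive library lay below the negative ones. Per kilobase, *Hes6* made up 59.5% ± 9.15 of the sum of *Hes1* and *Hes6* in positive and 45.4% ± 6.45 in negative duodenum (SD, n = 3), and 64.2% ± 8.56 and 40.1% ± 11.4 in the ileum. Its share was 53.5% ± 4.88 in positive and 44.1% ± 8.18 in negative jejunum. In the colon its mean share was not higher in positive cells, at 41.4% ± 10.8 against 45.2% ± 8.71. No test was made on the shares. The libraries of the sorts overlapped in the duodenum (51.7% to 69.6% against 41.6% to 52.9%), the jejunum (48.6% to 58.4% against 34.7% to 49.4%) and the colon.

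*Lfng* (ENSMUSG00000029570, chr5:140607320-140615545, plus strand) encodes lunatic fringe, a glycosyltransferase that extends O-fucose on Notch receptors and favours their response to Delta over Jagged ligands. Outside the duodenum it was lower in positive cells. Jejunal positive libraries had 0.0639, 0.781 and 0.729 CPM (1, 14 and 10 counts) and negative ones 5.54, 4.76 and 2.90 CPM. Ileal libraries had 1.400, 1.20 and 0.956 CPM against 6.44, 4.51 and 7.21 CPM. The positive values were under every negative value in both regions. In the colon the libraries had 2.24, 4.18 and 4.07 CPM against 5.27, 13.8 and 11.8 CPM, which did not overlap. The fitted difference was -3.04 in the jejunum (SE 0.58, edgeR adjusted p = 8.90e-05), -2.34 in the ileum (SE 0.53, adjusted p = 0.000897) and -1.56 in the colon (SE 0.51, adjusted p = 0.0398). The colonic call was lost when any of 5 of the 6 libraries was left out (adjusted p 0.0720 to 0.187), all but negative replicate 1. In the duodenum the order was turned round, with 6.14, 5.58 and 6.19 CPM in positive and 2.10, 5.25 and 2.09 CPM in negative libraries. The positive values were the higher ones there, but the difference of 0.92 (SE 0.51, adjusted p = 0.221) did not pass the test.

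Among the fringe genes, *Rfng* (radical fringe) rose in the jejunum and ileum, where *Lfng* fell. *Rfng* had 11.9 and 4.48 CPM in positive and negative jejunum (log2 fold change 1.40, SE 0.47, edgeR adjusted p = 0.0172) and 12.4 and 4.43 CPM in the ileum (1.48, SE 0.47, adjusted p = 0.0135). Per kilobase, *Lfng* made up 3.84% ± 2.80 of the fringe sum in positive and 49.7% ± 20.7 in negative jejunum (SD, n = 3). In the duodenum its share was 51.0% ± 11.2 and 49.0% ± 11.1.

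Whether the difference between sorts itself depended on the region was tested by interaction contrasts, of which the design gives 6. Between duodenum and jejunum 2 of the 9 members passed, against 14.6% of all genes, between duodenum and ileum 3 (4 by DESeq2 and 6 with scaling by library size), against 10.5%, and between duodenum and colon 2, against 3.62%. Between jejunum and colon 1 passed, against 9.69%, and between ileum and colon 1, against 2.79%. The counts between duodenum and jejunum and between jejunum and colon are near that background and are no result about the members as a group. Between jejunum and ileum none passed by edgeR, at an unadjusted p under 0.05 (0 genes) or by DESeq2 (0 genes), against 0.266% of all genes. The contrasts share libraries and are not independent of each other.

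The interaction of *Dll4* passed against the colon in each region of the small intestine. In the duodenum its difference exceeded that of the colon by 3.67 on the log2 scale (SE 0.51, edgeR adjusted p = 3.59e-05), and larger than in the colon by 2.23 in the jejunum (SE 0.50, adjusted p = 0.00482) and by 2.36 in the ileum (SE 0.50, adjusted p = 0.00898). It exceeded that of the jejunum by 1.44 in duodenal cells (SE 0.49, adjusted p = 0.0445), a call that was lost without any of 10 of the 12 libraries (adjusted p up to 0.164), with RLE factors (adjusted p = 0.0643) and without a filter on low counts (adjusted p = 0.127). For *Dll1*, the duodenum exceeded the ileum by 2.07 (SE 0.59, adjusted p = 0.0213), and this was lost without any of 7 of the 12 libraries (adjusted p up to 0.0817).

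For *Lfng*, the duodenum exceeded the jejunum by 3.96 (SE 0.77, edgeR adjusted p = 0.000946) and the ileum by 3.25 (SE 0.74, adjusted p = 0.00369), and both calls held without each of the 12 libraries. It exceeded the colon by 2.48 (SE 0.72, adjusted p = 0.0489), which was lost without any of 10 of the 12 libraries (adjusted p up to 0.137). For *Hes1*, the duodenum exceeded the ileum by 1.84 (SE 0.49, adjusted p = 0.0137), lost without the second positive library of the ileum (1.54, adjusted p = 0.0571).

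**Figure D4:**
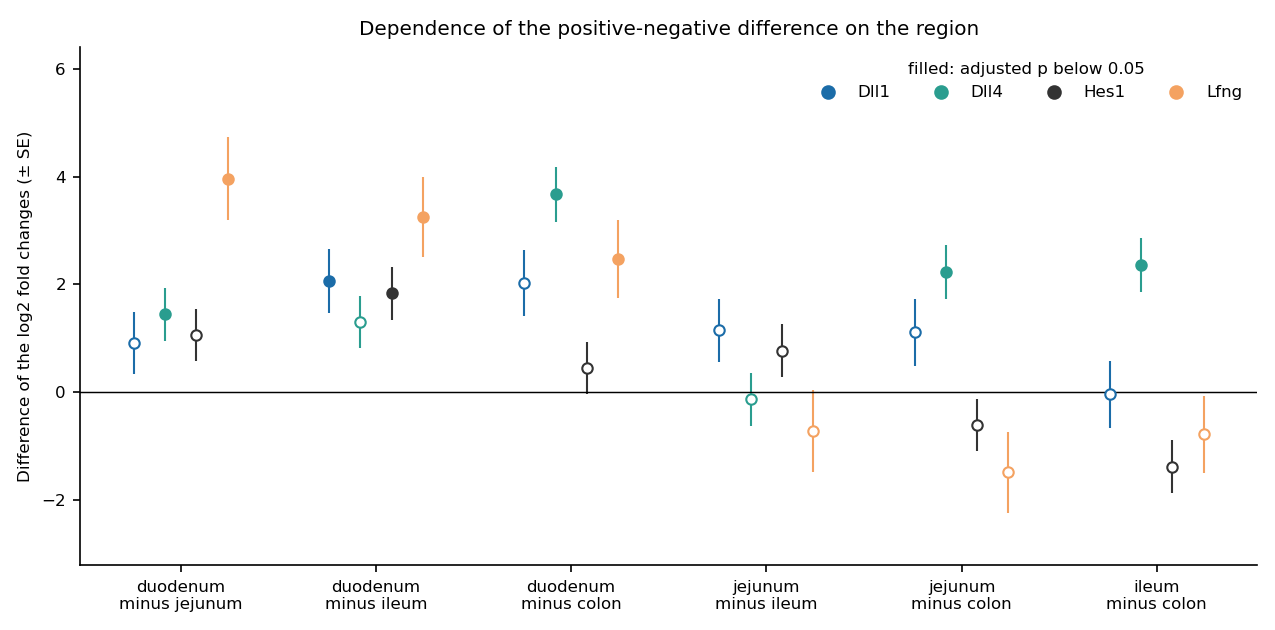
Difference between 2 regions in the log2 fold change of Venus-positive against Venus-negative cells, with its SE, for *Dll1*, *Dll4*, *Hes1* and *Lfng*; filled points have an edgeR adjusted p below 0.05. The filled points all lie above 0, meaning a higher value in the region named first, up to 3.96 for *Lfng* between duodenum and jejunum.

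Within Venus-positive cells, 6 of the 9 members differed between duodenum and jejunum, against 33.2% of all genes, and 5 between duodenum and ileum, against 25.5%. Between duodenum and colon 3 differed, against 12.4%, and between jejunum and ileum 1, against 5.15%. Between jejunum and colon 4 differed, against 33.9%, and between ileum and colon 4, against 21.7%. The count between jejunum and colon is near that background and is no result about the members as a group. When single libraries were left out, 0 to 1 members differed between jejunum and ileum and 2 to 3 between ileum and colon.

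In positive cells the duodenum held the highest mean of *Notch2*, *Dll1*, *Dll4*, *Jag2*, *Hes1*, *Hes6* and *Lfng*, though *Jag2* passed the test between no regions. The mean of *Dll1* went from 39.1 CPM in the duodenum through 19.9 in the jejunum and 6.15 in the ileum to 2.80 in the colon. Of the neighbours in this order, jejunum and ileum differed (log2 1.69, SE 0.42, edgeR adjusted p = 0.0129, lost without 3 of the 6 libraries, with an adjusted p up to 0.0839), while duodenum and jejunum (0.97, adjusted p = 0.0690) and ileum and colon (1.14, adjusted p = 0.0611) did not pass. *Dll4* went from 36.6 CPM in the duodenum to 13.9 in the ileum (difference 1.40, SE 0.34, adjusted p = 0.00261), with 11.9 CPM in the jejunum, not told apart from the ileum (adjusted p = 0.833), and 3.42 CPM in the colon, below the jejunum by 1.79 (SE 0.35, adjusted p = 0.000197).

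*Hes6* had 19.7 CPM in positive duodenum and 6.92 to 7.75 CPM in the other regions. The duodenum exceeded the jejunum by 1.50 (SE 0.37, edgeR adjusted p = 0.00236), the ileum by 1.51 (SE 0.37, adjusted p = 0.00326) and the colon by 1.34 (SE 0.37, adjusted p = 0.0127). The call against the colon was lost without the second positive library of the colon (adjusted p = 0.0930). The means of *Hes1* and *Lfng* were highest in the duodenum, then in the colon, and lowest in the jejunum and ileum. *Hes1* had 15.3 CPM in positive duodenum, 12.4 in colon, 6.77 in jejunum and 4.58 in ileum, and *Lfng* 5.97, 3.495, 0.525 and 1.19 CPM. Duodenum and colon were not told apart for *Hes1* (adjusted p = 0.673) or *Lfng* (adjusted p = 0.387), and neither were jejunum and colon for *Hes1* (-0.88, adjusted p = 0.0510). The colon exceeded the ileum for *Hes1* (log2 fold change of ileum against colon -1.44, SE 0.36, adjusted p = 0.00378, lost with scaling by library size at an adjusted p of 0.108) and the jejunum for *Lfng* (jejunum against colon -2.72, SE 0.58, adjusted p = 0.000475). For *Lfng* the colon also exceeded the ileum (-1.55, SE 0.53, adjusted p = 0.0357), which was lost without 5 of the 6 libraries (adjusted p up to 0.123) and with scaling by library size (adjusted p = 0.169).

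*Notch1* was highest in positive cells of the colon, at 8.65 CPM, above the jejunum (2.11 CPM, jejunum against colon -2.03, SE 0.44, edgeR adjusted p = 0.000541) and the ileum (3.90 CPM, -1.14, SE 0.42, adjusted p = 0.0485). The call against the ileum was lost without 5 of the 6 libraries (adjusted p up to 0.226) and with scaling by library size (adjusted p = 0.296). Duodenum and colon were not told apart (adjusted p = 0.291). The duodenum (5.17 CPM) exceeded the jejunum by 1.29 (SE 0.44, adjusted p = 0.0239), which was lost without 4 of the 6 libraries (adjusted p up to 0.102) and when the compared groups were fitted alone (adjusted p = 0.0735). *Notch2* had 4.96 CPM in positive duodenum, 1.63 in jejunum, 3.500 in ileum and 3.72 in colon. Its duodenum exceeded its jejunum by 1.61 (SE 0.58, adjusted p = 0.0319), a call lost without the second positive library of the duodenum or either of positive replicates 2 and 3 of the jejunum (adjusted p up to 0.217), or with the compared groups fitted alone (adjusted p = 0.102).

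Within Venus-negative cells, 2 members differed between duodenum and colon, against 11.2% of all genes, 1 between jejunum and colon, against 10.5%, and 1 between ileum and colon, against 5.24%. The single call between jejunum and colon is near that background and is no result about the members. None differed between duodenum and jejunum (against 0.725%), duodenum and ileum (against 4.40%) or jejunum and ileum (against 2.11%), with 0, 1 and 1 genes at an unadjusted p under 0.05 in edgeR and 0 by DESeq2 in each. Scaling by library size gave 3 members between duodenum and ileum and 2 between jejunum and ileum. *Dll1* was higher in negative duodenum (9.40 CPM) and jejunum (9.08 CPM) than in colon (2.75 CPM), by 1.77 (SE 0.45, adjusted p = 0.00736) and 1.72 (SE 0.45, adjusted p = 0.00944). *Lfng* was lower in negative duodenum than in colon, 3.15 against 10.3 CPM (-1.71, SE 0.51, adjusted p = 0.0264), and *Notch2* was higher in negative ileum than in colon, 19.1 against 5.195 CPM (1.89, SE 0.55, adjusted p = 0.0375). Of these 4, the difference of *Dll1* between duodenum and colon held without each of the 6 libraries. The others were lost without 3 (*Dll1* in jejunum, adjusted p up to 0.0822), 4 (*Lfng*, up to 0.143) and 4 (*Notch2*, up to 0.166) of them. The *Notch2* call was also lost with RLE factors (adjusted p = 0.0624) and with protein-coding genes outside the mitochondrial genome (adjusted p = 0.0531). That of *Dll1* in jejunum was lost with the compared groups fitted alone (adjusted p = 0.0993).

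Markers of other cell types were read in the same libraries, and their counts stand beside 8.08%, 25.6%, 20.6% and 3.80% of all genes lower from duodenum to colon. The 5 listed cycling markers were all lower in positive cells of the jejunum and ileum, with summed levels of 12.4 to 23.9 against 166 to 199 CPM in the jejunum and 16.2 to 33.6 against 188 to 256 CPM in the ileum. In the duodenum 2 of the 5 were lower (64.9 to 77.8 against 159 to 177 CPM) and in the colon 3 (50.7 to 59.6 against 84.7 to 218 CPM). Of the 5 stem cell markers, which include *Olfm4*, 4 were lower in the jejunum and in the ileum, 3 in the colon and 1 in the duodenum. Their sum was 70.1 to 308 against 1421 to 2394 CPM in the jejunum and 23.9 to 25.7 against 77.9 to 92.2 CPM in the colon. Enteroendocrine markers were lower as well, all 9 in duodenum and jejunum, 8 in ileum and 6 in colon, with sums of 21.4 to 58.8 against 1363 to 1585 CPM in the duodenum. Of the 5 tuft cell markers, 3 were lower in the duodenum, 5 in jejunum and ileum each, and 0 in the colon, with sums of 6.35 to 11.3 against 22.4 to 35.3 CPM in the duodenum and 3.13 to 5.63 against 12.7 to 49.7 CPM in the jejunum. Of the 5 fibroblast markers, 3 were lower in the ileum (sums of 0.00 to 1.20 against 1.27 to 17.7 CPM) and 0 in the other regions. Of the 6 epithelial markers, 5 were higher in duodenum, jejunum and ileum each and 3 in the colon. Over all genes, 8.88%, 18.3%, 17.9% and 9.31% were higher from duodenum to colon. In jejunum and ileum 1 epithelial marker was lower. The part of these cell types in the lower *Notch1*, *Notch2*, *Hes1* and *Lfng* of positive cells was not tested, nor was that of the Paneth or goblet markers in *Dll4*. The Paneth sum was 22151 to 52958 CPM in positive against 194 to 746 CPM in negative duodenum and 43.3 to 201 against 13.9 to 253 CPM in the colon, where 0 of the 6 markers passed the test. The goblet sum was 52987 to 60416 CPM in positive against 309 to 433 CPM in negative duodenum. In the colon the goblet sum was 4041 to 4954 against 922 to 1841 CPM, and all 7 goblet markers were higher there.

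Of 55 other genes of the pathway, listed with earlier results of these data known, 44 were tested. In the duodenum 7 were higher in positive cells and none was lower by edgeR or DESeq2 (6 were lower at an unadjusted p under 0.05). The jejunum had 15 higher and 7 lower, the ileum 16 and 5, and the colon 8 and 2. Over all genes tested, 8.88%, 18.3%, 17.9% and 9.31% were higher and 8.08%, 25.6%, 20.6% and 3.80% lower from duodenum to colon. Their median log2 fold change was 0.40, 0.64, 0.61 and 0.28, in the same order of regions. These counts moved with the processing: the 7 higher in the duodenum became 14 with scaling by library size, none lower there became 3 with the compared groups fitted alone, and the 8 higher in the colon became 2 to 5 under 7 other settings and 3 to 6 when single libraries were left out.

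In the jejunum, 2 of 5 tested genes of ligand uptake and 4 of 9 of receptor cleavage were higher in positive cells, beside 18.3% of all genes, and 1 cleavage gene was lower. Lists of this size do not set a role apart from that background. *Neurl1b*, a ubiquitin ligase that promotes ligand uptake, was higher in all 4 regions, for example 26.3 against 7.03 CPM in the jejunum (log2 fold change 1.90, SE 0.35, edgeR adjusted p = 6.50e-05) and 29.7 against 7.15 CPM in the colon (2.07, SE 0.36, adjusted p = 0.000188). *Mib2*, another such ligase, was higher in the jejunum (2.11) and ileum (1.19). *Furin*, which cleaves the receptor precursor, and *Ncstn*, a subunit of γ-secretase, were higher in the jejunum by 2.34 and 1.21. *Psen2* was the cleavage gene that was lower, in the jejunum (1.36 against 3.62 CPM). *Pofut1*, which adds the O-fucose that fringes extend, was lower in the ileum (5.79 against 15.2 CPM), and *Poglut1*, which adds O-glucose, in the jejunum (1.67 against 5.89 CPM).

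In the nucleus, the coactivators *Kat2b* and *Ep300* and the corepressor *Spen* were higher in the jejunum by 1.72, 1.03 and 1.19, and *Maml3*, a coactivator of the Notch complex, was lower there (3.58 against 9.34 CPM). The negative regulators *Numb* and *Itch* were higher in the jejunum by 2.20 and 1.66 and in the ileum by 2.38 and 1.61. *Dtx4*, a Deltex ubiquitin ligase, was lower in the jejunum (-3.09), ileum (-2.98) and colon (-1.69). The Notch target *Nrarp* and the stem cell gene *Olfm4* were lower in the jejunum (-1.59 and -3.88) and ileum (-1.89 and -3.65). *Hes2* went the other way, with 13.6 against 0.913 CPM in the jejunum and 7.83 against 0.256 CPM in the ileum.

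Among secretory regulators downstream of HES1, *Atoh1* had 79.1 CPM in positive and 1.22 CPM in negative duodenum (log2 fold change 6.0, SE 0.60, edgeR adjusted p = 1.67e-08) and was higher in the other 3 regions too (2.86, 2.99 and 2.20 from jejunum to colon). *Spdef*, a goblet and Paneth cell factor, was higher by 5.34, 1.87, 2.73 and 2.10 from duodenum to colon. *Gfi1*, which acts below ATOH1, was 8.69 against 0.211 CPM in the duodenum. *Neurog3*, the factor of enteroendocrine precursors, was lower outside the duodenum, with 0.0243, 0.00 and 0.0215 CPM in positive cells of jejunum, ileum and colon, under the floor, and 1.04, 0.459 and 1.99 CPM in negative cells. The libraries of the sorts overlapped in the colon, and in the duodenum (0.420 against 2.87 CPM) all positive libraries lay below the negative ones without passing the test (adjusted p = 0.118).

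**Figure D5:**
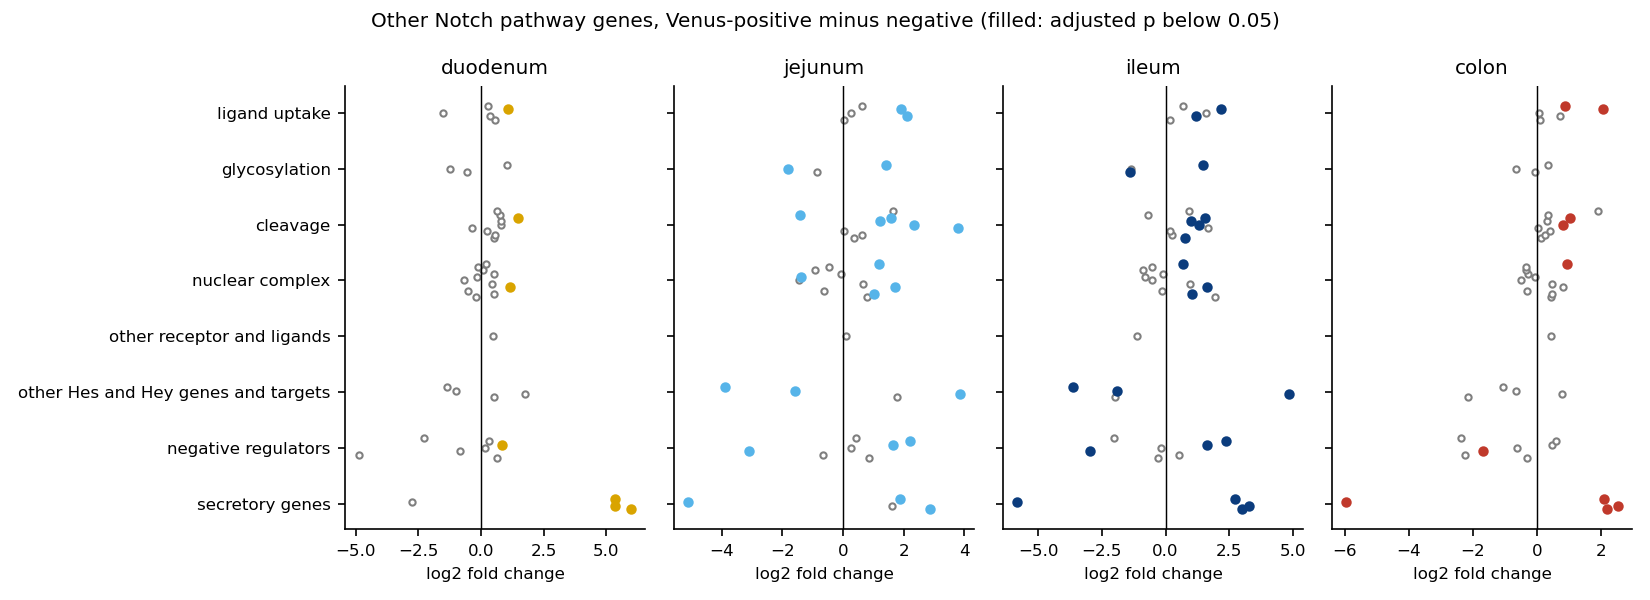
Log2 fold change of Venus-positive against Venus-negative cells for the 44 other pathway genes tested, by role (rows) and region (panels, each with its own horizontal scale); each point is a gene and filled points have an edgeR adjusted p below 0.05. Secretory genes reach 6.0 (*Atoh1*) in the duodenum, and the lowest secretory point of each region is *Neurog3*, whose plotted value depends on the prior count because positive cells were near or under the floor.

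Among all tested genes, those whose mean log2 CPM over the 8 groups followed a member most closely were listed by Pearson's r as a description, since the 8 means share their libraries and the sort. For *Dll4* they were *Defa27*, *Defa-ps6* and *Pnliprp2* (r = 0.981, 0.980 and 0.978), the first being an α-defensin gene of Paneth cells. For *Notch1* they were *Sema5a*, *Zfp90* and *Sac3d1* (r = 0.9995, 0.992 and 0.992), for *Hes1* *Rcc1l*, *Mcm8* and *Atm* (r = 0.994, 0.993 and 0.991), and for *Lfng* *Paip2b*, *Ror2* and *Kansl1l* (r = 0.988, 0.988 and 0.986).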

How the data were processed

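RNA of sorted cells was sequenced as single-end reads of stranded total RNA libraries. The submitters' processing notes name CASAVA, STAR 2.5.1 and the genome GRCm38. The authors deposited raw read counts per gene for 24 libraries, without normalisation, and the 4 summary lines of the table (unmapped, multimapping, ambiguous, outside genes; 39.4% to 75.8% of the reads of a library) were left out of the gene counts. The annotation and strand setting used for counting were not given in the sources used here.

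Gene names, positions and exon lengths were taken from GENCODE M21, which held 53360 of 53465 genes. Genes with low counts were removed by filterByExpr at a minimum count of 10 and a total of 15, and the rest were scaled by TMM and fitted in R 4.3.3 with edgeR 4.0.16, 1 coefficient per group, all 24 libraries and a common dispersion of 0.185. P-values were adjusted by the Benjamini-Hochberg method over 15044 genes, and the SE was derived from the log2 fold change and the F statistic. The fit was tested on simulated data, and no value from that test is given here. Alternatives were DESeq2 1.42.0, RLE factors, library size scaling, other filters, protein-coding genes only, the i5 index as covariate, the compared groups alone, stricter thresholds and leaving out each library.

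The members and the gene lists were chosen with earlier results of these data known. Named pathway genes were those called in at least 2 regions, at most 3 per role by smallest p. A gene that this rule also names is not reported here. *Psen2*, *Pofut1*, *Poglut1*, *Maml3*, *Neurog3* and *Notch4* were named after their values were seen.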

Additional observations from a re-analysis of the deposited data

Results flagged for a closer look

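The difference between Venus-positive and Venus-negative cells depended on the region, by edgeR interaction tests, for 4 genes. For *Dll4* the duodenum exceeded the jejunum by 1.44 and the colon by 3.67 on the log2 scale, and the jejunum and ileum exceeded the colon by 2.23 and 2.36. For *Lfng* the duodenum exceeded the jejunum by 3.96, the ileum by 3.25 and the colon by 2.48. For *Dll1* the duodenum exceeded the ileum by 2.07, and for *Hes1* by 1.84. The call of *Dll4* between duodenum and jejunum was lost without any of 10 of the 12 libraries, with RLE factors and without a filter on low counts. That of *Lfng* between duodenum and colon was lost without any of 10 of the 12 libraries, that of *Dll1* without any of 7 and that of *Hes1* without 1.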

How the results depend on the processing

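Of the 16 member differences between sorts that passed the test, none changed sign under any alternative, and all 16 passed with DESeq2, RLE factors, no filter, protein-coding genes, the i5 index and the compared groups alone. Scaling by library size moved the median of all genes by 0.43 in the duodenum and 0.30 in the jejunum, and RLE factors by 0.12 in the jejunum, so low values there are to be read against that shift. No paired analysis was made because the labels do not name the mouse. *Notch3*, *Jag2* and positive *Lfng* of the jejunum rest on few counts, which limits what could be detected. The cause of the changes listed here was not tested, except that fewer genes were tested with at least 10 counts in every library (5 members).

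At an adjusted p of 0.01, the members higher in the jejunum numbered 1, those lower in the colon 1 and in the duodenum 0. Library size scaling gave 0 members lower in the duodenum, 3, 2 and 2 differing in negative cells (duodenum and ileum, ileum and colon, jejunum and ileum), 2 in positive cells between ileum and colon, and 6 interactions between duodenum and ileum. With at least 10 counts in every library, 2 members were lower in the jejunum, and 1 and 0 differed in negative cells (duodenum and colon, ileum and colon), while *Hes6* passed in the ileum (-1.01, edgeR adjusted p = 0.0186) and colon (-1.002, adjusted p = 0.0422). Negative ileum and colon also gave 0 with RLE factors and 0 with protein-coding genes, negative jejunum and colon 2 with DESeq2 and 0 with the compared groups alone, and duodenum and jejunum 1 interaction with RLE factors and 1 without a filter. The i5 index gave 2 for positive jejunum and ileum and 2 interactions for jejunum and colon.

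Leaving out single libraries gave 1 to 2 members higher in the jejunum, and 1 to 2 lower in the colon and 0 to 2 in the duodenum. In negative cells 1 to 2 differed between duodenum and colon, 0 to 2 between ileum and colon and 0 to 1 between jejunum and colon, and in positive cells 2 to 3 between ileum and colon and 0 to 1 between jejunum and ileum. Interactions numbered 1 to 2 for duodenum and colon, 1 to 3 for duodenum and ileum, 1 to 3 for duodenum and jejunum, 1 to 2 for ileum and colon and 1 to 2 for jejunum and colon. *Hes6* passed in the ileum without negative replicate 1 (-1.05, edgeR adjusted p = 0.0432) or 2 (-1.16, adjusted p = 0.0184).

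For other pathway genes, alternatives chosen after seeing the data gave, for those higher in the colon, 5 (RLE), 5 (log2 fold change of at least 1), 4 (adjusted p of 0.01), 2 (at least 10 counts), 3 (compared groups alone), 5 (library size) and 5 (no filter). Those higher in the duodenum numbered 4 (adjusted p of 0.01) and 14 (library size), and in the ileum 10 (at least 10 counts). Those lower in the colon numbered 1 (adjusted p of 0.01), 1 (at least 10 counts) and 1 (compared groups alone), in the duodenum 3 (compared groups alone) and 1 (no filter), and in the jejunum 4 (adjusted p of 0.01). Without single libraries the ranges were 3 to 6 higher in the colon, 4 to 8 in the duodenum, 1 to 2 lower in the colon, 0 to 1 in the duodenum and 4 to 8 in the jejunum. Over all genes, calls at an adjusted p of 0.01 fell to 1197 from 2552 in the duodenum and 972 from 1972 in the colon.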
